A study of Mus musculus with 6 samples.

Results

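The genes described here were the 4 Notch receptors (*Notch1*, *Notch2*, *Notch3* and *Notch4*), 4 of their ligands (*Jag1*, *Jag2*, *Dll1* and *Dll4*) and 2 of their target genes (*Hes1* and *Hey1*). Members were found by gene symbol in a bulk RNA-Seq count matrix, and all other rows of the same assembled locus were added to the row of the symbol. All 10 genes had a row, and their loci held 13 of the 61880 rows of the matrix, which belonged to 53912 loci. Mammary epithelial cells had been isolated from the inguinal mammary glands of pubertal female mice, aged 6 to 8 weeks, and the study asked how their transcriptome differed after a life with *n*-3 polyunsaturated fatty acids (PUFA). The 3 *fat-1* samples came from FVB/NJ mice that carry a roundworm *n*-3 desaturase, an enzyme that makes *n*-3 from *n*-6 PUFA in the whole body, and the 3 wild-type (WT) samples came from FVB/NJ mice without it. Both genotypes had been kept for life on their parents' modified AIN93G diet, with 10% fat by weight from safflower oil, or 22% of energy. The cells of every sample were pooled from several mice, and p-values therefore measure the spread between these pools.

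Notch receptors are cell surface proteins that are cut when a ligand on a neighbouring cell binds them. The part released inside the cell enters the nucleus, joins the DNA-binding protein RBPJ and turns on target genes, among them repressors of the HES and HEY families. In the mammary gland, Notch signaling is known for guiding the choice between the luminal and the basal epithelial fate, and elsewhere in the tissue for the sprouting of blood vessels and the maturing of the cells that wrap them.

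The 6 samples held between 204539059 and 232148824 counts each, and the smallest count of any member in any sample was 557. Levels are given as CPM, counts relative to the library total after scaling by the trimmed mean of M-values (TMM), and 3 counts stood for 0.0129 to 0.0147 CPM. The isolates were checked against marker genes of the cell types that a digested gland can hold. The 17 luminal and basal markers, led by *Krt8*, *Krt18*, *Krt5* and *Krt14*, were present in every sample, but their summed level was 4726, 1030 and 1839 CPM in *fat-1* samples 1, 2 and 3 and 3614, 2085 and 1069 CPM in WT samples 1, 2 and 3. In other words, *fat-1* sample 2 and WT sample 3 were lowest and sample 1 was highest in both genotypes, a 4.59-fold range that did not separate the genotypes. The summed loci of the 11 lymphocyte markers ran the other way, between 625 and 1395 CPM in *fat-1* and between 628 and 1462 CPM in WT samples. The locus of 1 of them, *Cd79a*, also held *Arhgef1*, and the row of the symbol was 0.158% to 5.78% of that locus, so its level cannot be assigned. Without it, a choice made after seeing the data, the other 10 markers summed to between 347 and 889 CPM in *fat-1* and between 362 and 941 CPM in WT samples. The 6 fibroblast markers, led by *Dcn* and *Col1a2*, summed to between 1551 and 6065 CPM in *fat-1* and between 3332 and 5617 CPM in WT samples. The 9 endothelial markers, led by *Pecam1* and *Cdh5*, summed to between 232 and 282 CPM in *fat-1* and between 257 and 316 CPM in WT samples. No marker of these lists was at 0 in any sample, and the *Krt14* locus also held *Krt16*. Other marker loci were shared as well and stayed in their sums. The lymphocyte marker *Cd79b* shared its locus with *Scn4a*, and its row was 5.03% to 83.7% of that locus. The endothelial marker *Egfl7* shared its locus with *Dipk1b*, and its row was 32.7% to 48.1% of that locus. In these bulk samples, fewer cells of a type and less RNA per cell cannot be told apart.

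The sequence before the start of a gene is where RBPJ or the HES and HEY repressors can bind, and RefSeq promoters on GRCm38.p6 were matched by symbol for 8 of the 10 members, with 9 promoters because *Dll1* has a pair of starts. No entry was matched for *Hes1* and *Hey1*. In the 250 bases before the start, on both strands, GTGGGAA, a site of RBPJ, was found in 0 of the 9 promoters and in 5.42% of all 32851 promoters of that length. Its core TGGGAA, which lies within it, was found in 0 of the 9 and in 21.6% of all. CACGNG, which takes in a site of HES and HEY proteins and does not overlap those motifs, was found in 6 of the 9 and in 23.5% of all. These 9 windows had a GC content between 56.0% and 87.2%, against a median of 52.4% over all promoters. The promoters of *Notch3*, *Jag1*, *Jag2* and *Dll4* are shown because the first 3 genes had the order of the epithelial markers in both genotypes and *Dll4* did not, and capitals mark CACGNG on either strand. The *Notch3* window is chr17:32166891-32167140 on the minus strand, the *Jag1* window chr2:137116521-137116770 on the minus strand, the *Jag2* window chr12:112929496-112929745 on the minus strand and the *Dll4* window chr2:119325534-119325783 on the plus strand, each written 5′ to 3′ on the strand of the gene.
Notch3: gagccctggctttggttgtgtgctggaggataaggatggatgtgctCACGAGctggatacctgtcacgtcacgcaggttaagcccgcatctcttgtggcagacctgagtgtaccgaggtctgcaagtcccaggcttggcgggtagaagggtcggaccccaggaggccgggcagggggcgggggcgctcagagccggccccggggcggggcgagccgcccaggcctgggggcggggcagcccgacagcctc
Jag1: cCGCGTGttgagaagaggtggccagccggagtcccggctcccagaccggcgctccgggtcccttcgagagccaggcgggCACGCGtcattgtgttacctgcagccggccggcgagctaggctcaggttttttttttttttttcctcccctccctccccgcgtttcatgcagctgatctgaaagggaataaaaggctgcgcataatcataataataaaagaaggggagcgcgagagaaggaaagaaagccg
Jag2: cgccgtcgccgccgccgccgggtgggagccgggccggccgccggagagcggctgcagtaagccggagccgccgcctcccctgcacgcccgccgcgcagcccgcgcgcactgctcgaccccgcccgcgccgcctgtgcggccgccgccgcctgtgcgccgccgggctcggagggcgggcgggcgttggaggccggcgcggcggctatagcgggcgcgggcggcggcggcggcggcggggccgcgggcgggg
Dll4: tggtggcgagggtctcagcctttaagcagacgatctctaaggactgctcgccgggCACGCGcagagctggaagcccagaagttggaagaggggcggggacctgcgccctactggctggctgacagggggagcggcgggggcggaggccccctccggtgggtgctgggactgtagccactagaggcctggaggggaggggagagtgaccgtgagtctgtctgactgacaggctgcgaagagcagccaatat
The match began 204 bases before the start in *Notch3* and 195 bases before it in *Dll4*. *Jag1* had a match at 249 bases, on the opposite strand, and a match at 171 bases. *Notch2* and both promoters of *Dll1* also held the motif, while *Notch1*, *Jag2* and *Notch4* did not. The motif was thus present both in genes with the order of the epithelial markers and in genes without it.

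Of the receptors, *Notch1*, *Notch2* and *Notch4* varied 1.39-, 1.21- and 1.59-fold between samples and *Notch3* varied 4.01-fold. No receptor passed the test of *fat-1* against WT samples. *Notch1*, which restrains the basal fate and favours the luminal one in the mammary gland, lies at chr2:26457903-26516663 on the minus strand of GRCm38. Its locus sum was 180.0, 129 and 148 CPM in *fat-1* samples 1, 2 and 3 and 159.8, 138 and 130.5 CPM in WT samples 1, 2 and 3. Sample 1 was highest in both genotypes and the groups overlapped. The means were 152 ± 25.7 CPM in *fat-1* and 143 ± 15.3 CPM in WT samples (SD, n = 3 each). The log2 fold change of *fat-1* over WT was 0.10 with a standard error of 0.15, and its 95% interval ran from -0.26 to 0.45, or between 0.836- and 1.37-fold. The locus also held a row for the microRNA gene *Mir6996*, within an intron, with 0 to 10 counts.

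*Notch2*, a receptor that is also found in luminal cells, lies at chr3:98013527-98150361 on the plus strand. Its locus sum was 176, 153 and 146 CPM in *fat-1* samples 1, 2 and 3 and 145, 146 and 148 CPM in WT samples. The WT samples lay within 1.02-fold of each other, *fat-1* sample 3 fell between them, and *fat-1* samples 1 and 2 were higher. The means were 158 ± 15.7 CPM in *fat-1* and 146 ± 1.55 CPM in WT samples (SD, n = 3 each), and the log2 fold change was 0.11 with a 95% interval from -0.11 to 0.34.

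The counts of the *Notch2* locus were divided between a row with the symbol, a row without one and a small row for *Gm42820*, a gene on the same strand whose exons share 541 bases with those of *Notch2*. The row with the symbol held 81.5%, 90.8% and 49.5% of the locus counts in *fat-1* samples 1, 2 and 3 and 50.6%, 57.1% and 62.0% in WT samples. The row without a symbol took nearly all of the rest, with 18.2%, 8.88% and 50.2% in *fat-1* and 49.2%, 42.6% and 37.7% in WT samples, and *Gm42820* had 68 to 108 counts. Samples 1 and 2 of *fat-1* thus differed from the other 4 samples in how the locus was divided, and *fat-1* sample 3 was like the WT samples.

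**Figure D1:**
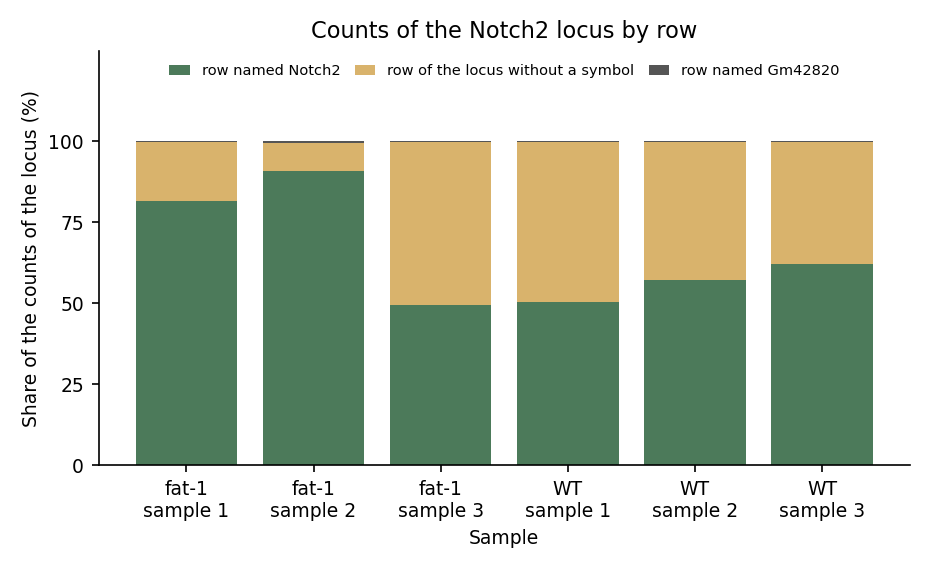
Share of the counts of the *Notch2* locus in each of its rows (percent, vertical axis) for each sample (horizontal axis), as stacked bars. The row named *Notch2* holds 81.5% and 90.8% in *fat-1* samples 1 and 2 and between 49.5% and 62.0% in the other 4 samples.

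Read by the row with the symbol alone, *Notch2* was 144, 139.6 and 72.0 CPM in *fat-1* and 73.2, 83.7 and 91.7 CPM in WT samples. This gave a log2 fold change of 0.52 with a standard error of 0.28 and a 95% interval from -0.18 to 1.22, while the row without a symbol gave -0.67 with a standard error of 0.57. Neither row passed edgeR's quasi-likelihood test, with unadjusted p of 0.119 and 0.287 and a Benjamini-Hochberg adjusted p of 1.00 for both. Without *fat-1* sample 3 the log2 fold changes became 0.78 and -1.46, with unadjusted p of 0.0040 and 0.0173, and the edgeR adjusted p stayed at 1.00. Of 14 alternatives, that one gave the smallest unadjusted p for both rows. With any 1 sample left out, the log2 fold change ran from 0.36 to 0.78 for the row with the symbol. For the row without a symbol it ran from -1.46 to -0.26. With all samples, the log2 fold change of the row with the symbol was thus 0.52 where that of the whole locus was 0.11.

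*Notch3*, a receptor of luminal progenitors and of the mural cells of vessels, lies at chr17:32120820-32166852 on the minus strand. Its level was 79.4, 19.8 and 45.1 CPM in *fat-1* samples 1, 2 and 3 and 75.0, 45.8 and 23.4 CPM in WT samples 1, 2 and 3. The groups covered the same range, sample 1 was highest in both, and *fat-1* sample 2 and WT sample 3 were lowest, the same samples that were lowest in the epithelial markers. The means were 48.1 ± 29.9 CPM in *fat-1* and 48.1 ± 25.9 CPM in WT samples (SD, n = 3 each). With that spread, the 95% interval of the log2 fold change ran from -1.41 to 1.41, or between 0.376- and 2.66-fold.

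*Notch4*, a receptor of endothelial cells, lies at chr17:34564268-34588503 on the plus strand and was 5.12, 4.70 and 5.99 CPM in *fat-1* and 5.16, 7.46 and 4.98 CPM in WT samples. WT sample 2 was highest and the other 5 samples lay close together. The log2 fold change was -0.16 with a 95% interval from -0.65 to 0.34. The 9 endothelial markers had a median log2 fold change of -0.26, beside 0.0018 over all loci tested, with 7 of 9 below 0. Of these, 4 of 9 had groups that did not overlap, beside 4.15% of all loci, and 0 of 9 had an unadjusted p at or under 0.05, beside 1.14% of all loci. Over the 6 samples, Pearson's r of *Notch4* with the mean log2(CPM + 1) of these 9 markers was 0.637 (exact permutation p = 0.190). Without *fat-1* sample 1 and WT sample 2 it was -0.158. Their part in the *Notch4* difference between the genotypes was not tested.

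Among the ligands, *Jag1* and *Jag2* varied between samples much as *Notch3* did, while *Dll1* and *Dll4* were nearly level. No ligand passed the test between the genotypes. *Jag1*, a ligand expressed by basal and luminal epithelium as well as by vessels, lies at chr2:137081456-137116644 on the minus strand and was 59.1, 27.6 and 32.6 CPM in *fat-1* and 54.6, 38.6 and 25.6 CPM in WT samples. As for *Notch3*, sample 1 was highest in both genotypes and *fat-1* sample 2 and WT sample 3 were lowest in their groups. *Jag2*, the other ligand of the Jagged family, lies at chr12:112907819-112929776 on the minus strand and was 10.8, 6.50 and 8.83 CPM in *fat-1* and 11.5, 8.72 and 5.27 CPM in WT samples. The order of the samples within each genotype was that of *Jag1*. The log2 fold changes were 0.0070 with a 95% interval from -0.90 to 0.91 for *Jag1* and 0.035 with an interval from -0.74 to 0.81 for *Jag2*.

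*Dll1*, a Delta-like ligand of mammary basal cells, lies at chr17:15367354-15376872 on the minus strand and was 5.03, 6.27 and 6.32 CPM in *fat-1* and 6.44, 5.48 and 5.74 CPM in WT samples. *Dll4*, the ligand known from the tip cells of vascular sprouts, lies at chr2:119325784-119335962 on the plus strand and was 6.22, 8.91 and 8.02 CPM in *fat-1* and 8.44, 7.66 and 6.98 CPM in WT samples. For both genes *fat-1* sample 1, the sample with the most epithelial marker RNA, was the lowest of the 6 samples. The groups overlapped, and the spread was small enough to bound a change in the mean: the 95% interval of the log2 fold change ran from -0.36 to 0.36 for *Dll1*, or between 0.777- and 1.28-fold, and from -0.41 to 0.42 for *Dll4*, or between 0.752- and 1.34-fold.

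Of the targets, *Hes1*, a basic helix-loop-helix repressor that Notch induces in many tissues, lies at chr16:30064384-30067796 on the plus strand. It was 22.7, 10.5 and 13.3 CPM in *fat-1* and 24.6, 14.4 and 9.98 CPM in WT samples. The groups overlapped, and the order of the samples within each genotype was again that of *Jag1* and *Notch3*. The means were 15.5 ± 6.38 CPM in *fat-1* and 16.3 ± 7.48 CPM in WT samples (SD, n = 3 each), and the log2 fold change was -0.075 with a 95% interval from -1.07 to 0.92.

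*Hey1*, a related repressor, lies at chr3:8663359-8667256 on the minus strand and had the largest difference between the genotypes of the 10 locus sums. It was 4.48, 2.67 and 4.20 CPM in *fat-1* samples 1, 2 and 3 and 8.25, 6.51 and 2.71 CPM in WT samples 1, 2 and 3. WT samples 1 and 2 were above all *fat-1* samples, but WT sample 3 was as low as *fat-1* sample 2. The means were 3.78 ± 0.978 CPM in *fat-1* and 5.82 ± 2.83 CPM in WT samples (SD, n = 3 each). The log2 fold change was -0.62 with a standard error of 0.42 and a 95% interval from -1.65 to 0.40, and it did not pass edgeR's quasi-likelihood test, with an unadjusted p of 0.190 and an adjusted p of 1.00. The size of the difference depended on single WT samples. Without WT sample 1 the log2 fold change was -0.28, with an unadjusted p of 0.530, and without WT sample 3 it was -0.95, with an unadjusted p of 0.013 and an edgeR adjusted p of 1.00.

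**Figure D2:**
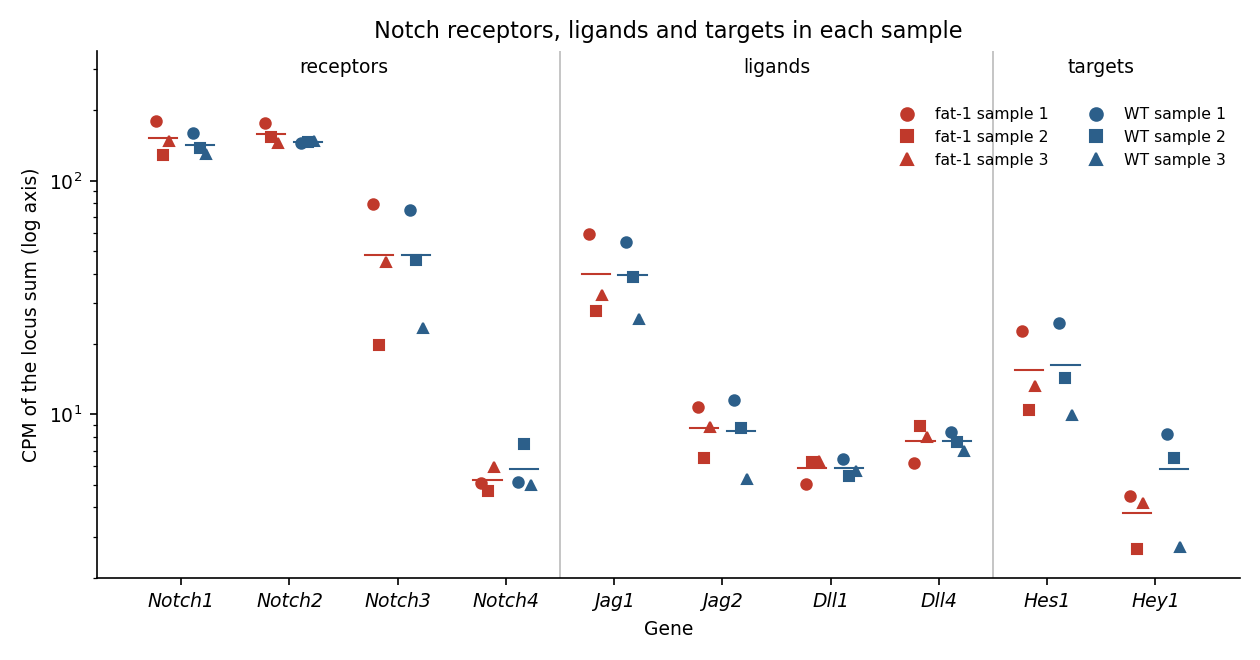
Level of each member (horizontal axis) as CPM of its locus sum on a log axis, with 1 symbol per sample and a line at the mean of the 3 samples of each genotype. The *fat-1* and WT samples overlap for all 10 genes, and *Notch3* runs from 19.8 to 79.4 CPM.

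Across the members, 0 of the 10 locus sums passed an adjusted p of 0.05 in edgeR's quasi-likelihood test, and 0 of 10 had an unadjusted p at or under 0.05. The background over all 24061 loci tested was 0.0% at the adjusted threshold, where 0 loci passed, and 1.14% (274 loci) at the unadjusted one, and a count of 0 among 10 genes lies near that background. In edgeR's exact test and DESeq2's Wald test, 0 of the 10 members passed the adjusted threshold as well, where 6 and 8 of all loci did. On the rows with the symbol, 0 of 10 passed either threshold, against 0 of 30683 rows (0.0%) and 2.21% of rows. The groups did not overlap in CPM for 0 of the 10 members, beside 4.15% of all loci, and this count also lies near the background. The median log2 fold change of the 10 members was 0.0028, beside 0.0018 over all loci tested, and 4 of 10 were below 0, beside 49.4% of all loci. Exact permutation tests of each member, two-sided on log2(CPM + 1), gave p between 0.3 and 1.0, where the smallest p that 3 against 3 samples allow is 0.1. The unadjusted p of the 10 locus sums ran from 0.190 to 0.999. The width of the 95% interval also differed between members, and its far end was 1.27-fold for *Notch2*, 2.66-fold for *Notch3* and 0.320-fold for *Hey1*.

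**Figure D3:**
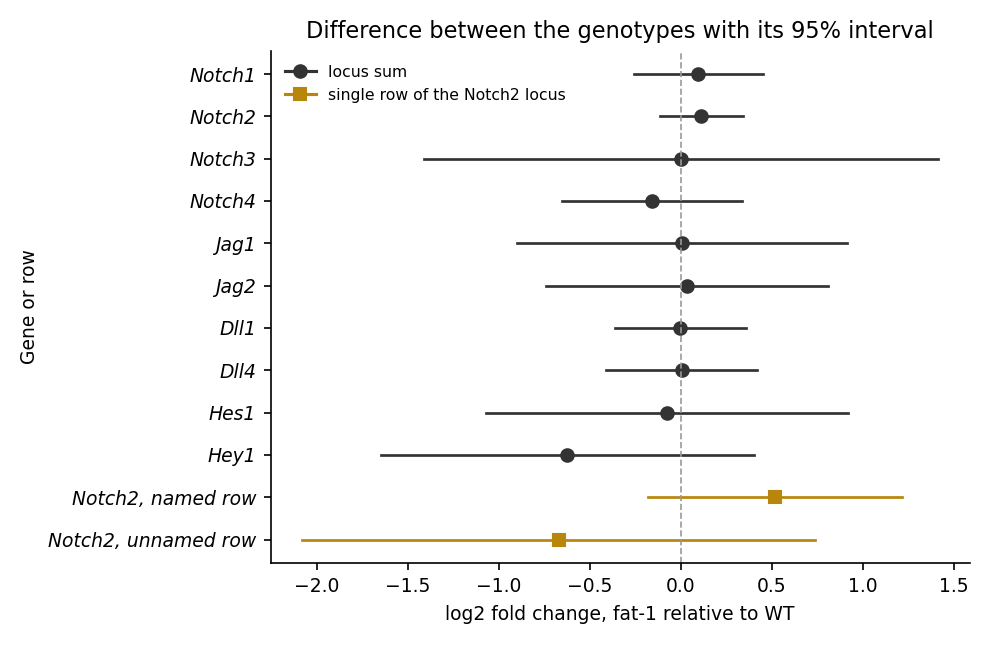
Log2 fold change of *fat-1* relative to WT samples (horizontal axis) for each member and for the single rows of the *Notch2* locus, with bars for the 95% interval of edgeR's quasi-likelihood fit, 3 samples per genotype. Every interval includes 0, and the intervals of *Notch3*, *Hey1* and *Hes1* are the widest of the 10 locus sums.

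Within both genotypes, 6 of the 10 members had the same order of samples as the epithelial markers. The epithelial score was the mean log2(CPM + 1) of the 17 luminal and basal markers, none of which is a member, and was 6.70, 4.81 and 5.81 in *fat-1* and 6.75, 5.93 and 4.90 in WT samples. *Notch1*, *Notch3*, *Jag1*, *Jag2*, *Hes1* and *Hey1* ordered the 3 samples as the score did in both genotypes, and 0 members had the opposite order in both. Of all 24061 loci, 14.2% had the same order in both genotypes and 10.2% the opposite one.

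Over the 6 samples, Pearson's r with the epithelial score was 0.995 for *Notch3*, 0.973 for *Hes1*, 0.968 for *Jag1*, 0.962 for *Jag2*, 0.904 for *Notch1* and 0.826 for *Hey1*. Exact permutation tests of these r gave p of 0.0042, 0.0153, 0.0153, 0.0097, 0.0208 and 0.0236, and Spearman's rho was 0.943, 0.943, 0.886, 0.886, 0.886 and 0.943, with exact permutation p of 0.0167 for 0.943 and 0.0333 for 0.886. All 6 members were thus higher in samples with more epithelial marker RNA. None of the 60 relations between the 10 members and 6 marker scores passed after adjustment over the 60, where the smallest adjusted p was 0.0917 for Pearson's r and 0.167 for Spearman's rho. Without *fat-1* sample 2 and WT sample 3, the samples farthest from the median score, r was 0.990 for *Notch3*, 0.998 for *Hes1*, 0.978 for *Jag1*, 0.980 for *Jag2* and 0.819 for *Notch1*. For *Hey1* it was 0.362, so the size of its r depended on those samples. In the samples that remained, *Hey1* was 4.20 and 4.48 CPM in *fat-1* samples 3 and 1 and 6.51 and 8.25 CPM in WT samples 2 and 1. Their order within each genotype follows from the order already given above and is no further support. An r at or over 0.9 was found for 5 of the members and for 9.92% of all loci.

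Per unit of the score, a doubling of the geometric mean of marker CPM + 1, the log2 level changed by 0.96 for *Notch3*, 0.60 for *Hes1*, 0.57 for *Jag1*, 0.53 for *Hey1*, 0.44 for *Jag2* and 0.20 for *Notch1*. *Notch3* therefore changed nearly as much as the epithelial markers themselves and *Notch1* far less. The other 4 members had r of 0.310 (*Notch2*), 0.219 (*Notch4*), -0.252 (*Dll1*) and -0.292 (*Dll4*), with exact permutation p between 0.583 and 0.771. *Dll4* had the order of the score in the 3 WT samples and the opposite order in the 3 *fat-1* samples, and *Notch2* had the opposite order in WT samples only. These differences between the genotypes were not tested. The lymphocyte score ran opposite to the epithelial score (r = -0.980 over the 6 samples), so the same 6 members had negative r with it, between -0.969 for *Notch3* and -0.819 for *Notch1*, and without *Cd79a* between -0.971 and -0.822. The myeloid score also ran opposite to the epithelial score (r = -0.860), and its r was -0.944 for *Notch1*, -0.932 for *Jag1* and -0.930 for *Hes1*, with exact permutation p of 0.0056, 0.0111 and 0.0222. For *Notch1* this r was larger in size than that with the epithelial score, and its r with the mural score was -0.862 (exact permutation p = 0.0292). The samples farthest from the median of the myeloid and mural scores were *fat-1* sample 1 and WT sample 1. Without them the myeloid r was -0.645 for *Notch1*, -0.496 for *Jag1* and -0.569 for *Hes1*. The mural r of *Notch1* turned to 0.304, so the size or sign of these r depended on those samples. The *Cd68* locus of the myeloid list also held *Eif4a1*. Without that locus, the myeloid r over the 6 samples were -0.952, -0.941 and -0.934. Which of these scores the members followed cannot be told apart. With the epithelial score as a term beside the genotype, a fit added after seeing the data, the standard error of the *Notch3* log2 fold change fell from 0.58 to 0.09 and its value was 0.025. In that fit *Hes1* was 0.0024 ± 0.12 (SE), *Jag1* 0.052 ± 0.11, *Jag2* 0.12 ± 0.12 and *Hey1* -0.48 ± 0.21, and 0 of the 10 members passed (unadjusted p from 0.0658, edgeR adjusted p = 1.00).

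**Figure D4:**
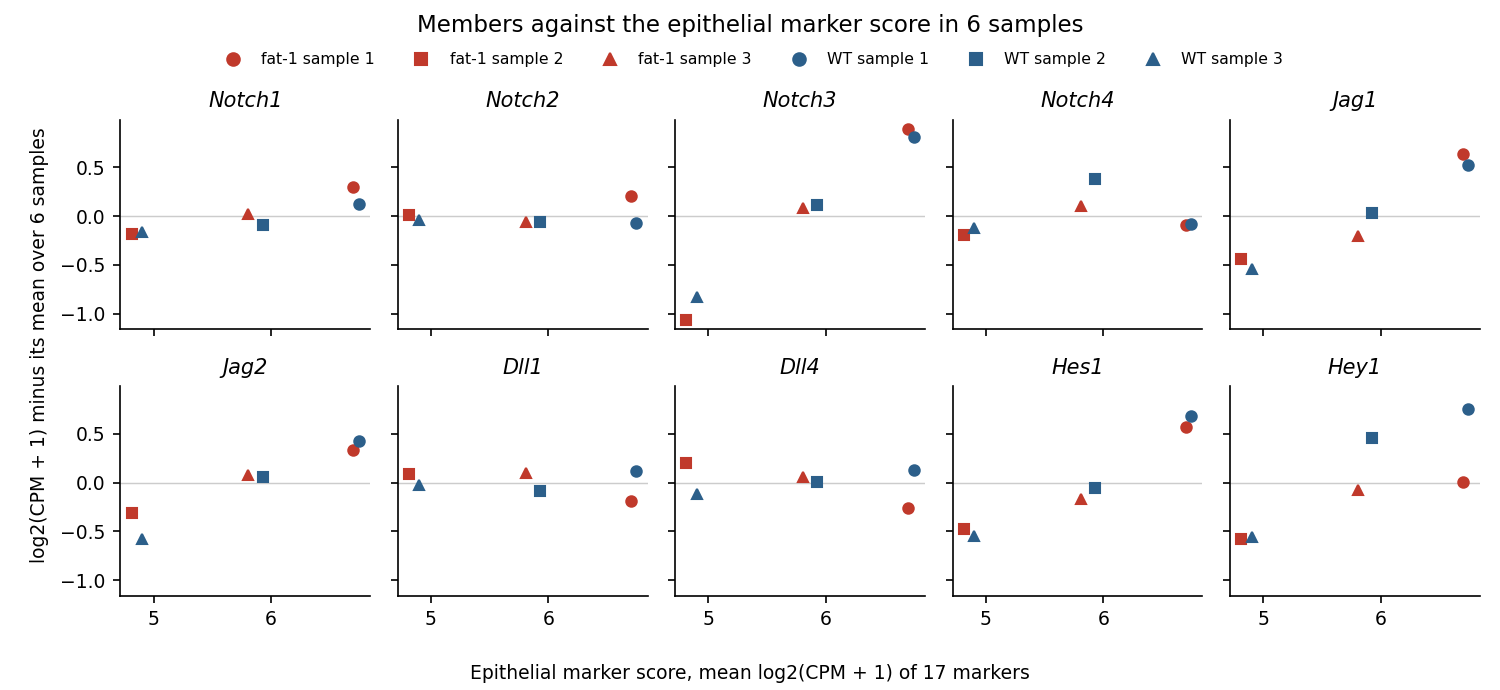
Log2(CPM + 1) of each member minus its mean over the 6 samples (vertical axes) against the epithelial marker score (horizontal axes), 1 panel per member and 1 symbol per sample. *Notch3*, *Jag1*, *Jag2* and *Hes1* rise with the score in both genotypes, and *Dll4* has the order of the score in WT samples and the opposite order in *fat-1* samples.

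The marker most like each member, among 61 markers over 6 samples, is given as a description. It was a luminal or basal gene for 7 of the 10 members: the tight junction gene *Cldn3* for *Notch3* (r = 0.997), the luminal keratin *Krt18* for *Jag1* (0.988), the basal keratin *Krt5* for *Notch1* (0.986), the estrogen receptor *Esr1* for *Jag2* (0.985), the adhesion gene *Epcam* for *Hes1* (0.971), the alveolar factor *Elf5* for *Hey1* (0.965) and the luminal progenitor gene *Aldh1a3* for *Notch2* (0.690). For *Notch4* it was *Tek*, the angiopoietin receptor of endothelial cells (0.855). With the whole endothelial score, r was lower, at 0.637 for *Notch4* (exact permutation p = 0.190) and 0.229 for *Dll4* (p = 0.678). With the mural score, r was -0.641 for *Notch3* (exact permutation p = 0.178) and 0.644 for *Dll4* (p = 0.165). The most similar markers of *Dll4* and *Dll1* were the adipocyte genes *Plin1* (0.800) and *Adipoq* (0.730). Both adipocyte genes were low, at 0.110 to 0.266 CPM for the *Plin1* row and 0.257 to 0.499 CPM for the *Adipoq* row. The 5 adipocyte markers together summed to between 84.5 and 107 CPM in *fat-1* and between 113 and 127 CPM in WT samples, without overlap. The highest of them had a mean of 105 CPM. In edgeR's quasi-likelihood test, 1 of 5 had an unadjusted p at or under 0.05, lower in *fat-1*, beside 1.14% of all loci. None passed the adjusted threshold, and any part in the member values was not tested. Many genes varied together across these samples, and the reason was not tested.

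Compared per length, as CPM per kilobase of merged exons in GENCODE M21, *Notch2* was the highest member (14.1 ± 1.12, SD over 6 samples), followed by *Notch1* (10.4), *Hes1* (7.80), *Jag1* (6.81) and *Notch3* (5.95). After a step of 2.97-fold came *Dll4* (2.0), *Hey1* (1.47), *Dll1* (1.39), *Jag2* (1.24) and *Notch4* (0.690). The ranges of *Notch3* and *Dll4* over the 6 samples did not overlap, under this length or under that of the longest transcript, but *Hey1* reached 2.53 in WT sample 1 where *Notch3* fell to 2.45 in *fat-1* sample 2. Within the upper and lower 5 genes most neighbours overlapped: under merged exons only *Notch2* and *Notch1* did not, and per kilobase of the longest transcript *Notch1* was above *Notch2* (15.5 against 14.5) with overlapping ranges, and the ranges of *Dll1* and *Notch4* did not overlap. The order of *Notch1* and *Notch2* thus turned with the length used.

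**Figure D5:**
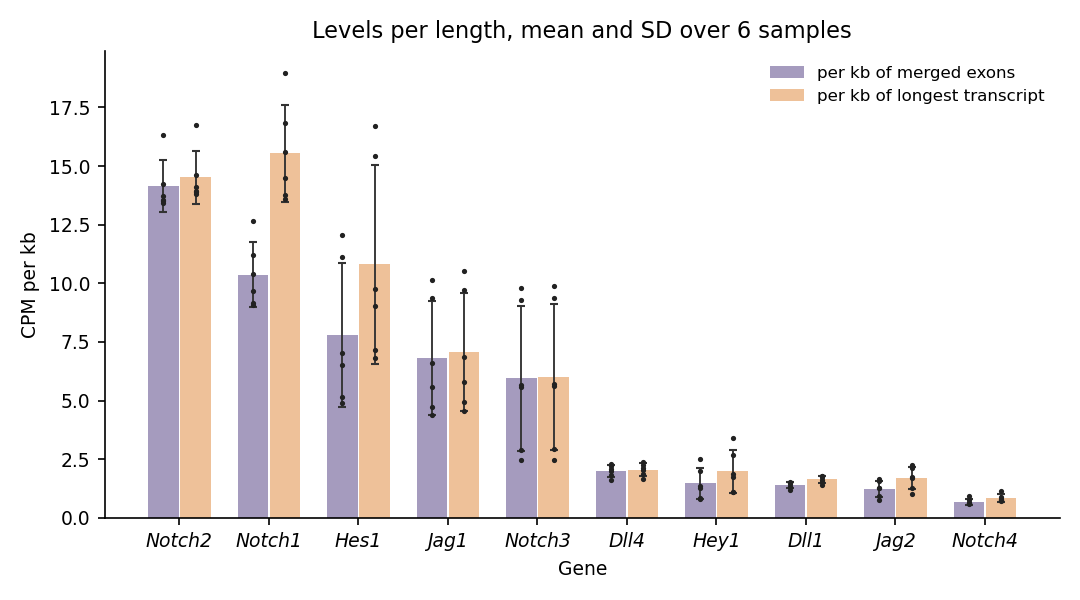
Level per length of each member (vertical axis, CPM per kilobase) as bars for the mean over 6 samples with error bars for the SD and points for the samples, for the merged exon length and the longest transcript. The means of the 5 members on the left lie above those of the 5 on the right, though points of *Notch3* and *Hey1* overlap, and *Notch1* and *Notch2* change order between the length definitions.

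As shares of the summed per-length level of their class, *Notch2* made up 38.9% to 54.0% of the receptors, *Notch1* 32.1% to 34.7%, *Notch3* 9.30% to 26.8% and *Notch4* 1.61% to 3.10%. The share of *Notch1* was nearly constant, and the share of *Notch3* was smallest in *fat-1* sample 2 and WT sample 3. *Jag1* made up 50.0% to 70.0% of the ligands and *Hes1* 78.0% to 89.0% of the targets in every sample. Per merged exon length, *Notch2* and *Jag1* had the largest shares of their classes in both genotypes.

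The other genes of the pathway were counted from lists of ligands, HES and HEY factors, nuclear partners, receptor-cleaving and glycosylating enzymes, ligand endocytosis, and inhibitors and turnover. All 50 had a row and 48 passed the filter on low counts, which *Hes2* and *Hes3* did not. Of the 48 locus sums, 0 passed the adjusted threshold and 0 had an unadjusted p at or under 0.05 (1.14% of all loci), with 25 above and 23 below 0 and a median log2 fold change of 0.0084. *Rbpj*, the DNA-binding partner of the receptors, was 162 ± 12.4 CPM in *fat-1* and 163 ± 19.99 CPM in WT samples (log2 fold change -0.011). The highest gene of each other list was *Adam10*, the sheddase that makes the first ligand-dependent cut, at 208 ± 68.5 and 219.5 ± 61.2 CPM, *Mib1*, a ubiquitin ligase for the ligands, at 135 ± 22.5 and 137 ± 15.3 CPM, *Hes6*, an inhibitor of HES1, at 7.80 ± 1.41 and 8.61 ± 1.67 CPM, and *Dlk1*, a non-canonical ligand, at 0.966 ± 0.0197 and 1.15 ± 0.336 CPM in *fat-1* and WT samples. The highest locus of 3 lists was shared with another gene, so its level cannot be assigned: *Maml1*, a coactivator, with *Canx* (the *Maml1* row held 1.71% to 8.02% of the locus), *Poglut1*, a glucosyltransferase, with *Timmdc1*, and *Itch*, a ubiquitin ligase, with *Dynlrb1*.

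The groups did not overlap for 2 of the 50 genes, beside 4.15% of all loci, and both were chosen for mention after their values were seen. They were the ligand *Dll3*, at 0.0721 to 0.0979 CPM in *fat-1* and 0.0438 to 0.0662 CPM in WT samples, and *Heyl*, a HEY family factor, at 0.247 to 0.382 CPM in *fat-1* and 0.384 to 0.486 CPM in WT samples. Both had low counts, and neither passed the test, since the unadjusted p of the 48 genes started at 0.168. Several members share exon bases with genes on the opposite strand: *Notch1* with *0610009E02Rik* (1068 bases) and *Gm13568* (414 bases), *Dll1* with *A930024N18Rik* (867 bases), *Notch3* with *Gm17276* (488 bases) and *Dll4* with *Gm14207* (214 bases). Whether the counting used strand is not given in the sources used here, and the reads of such pairs may not be separated.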

How the data were processed

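RNA was sequenced as paired-end reads from 3 *fat-1* and 3 WT pools, and the methods give both 2 to 3 mice per sample and 6 to 8 mice per analysis. The authors aligned reads with HISAT2 to GRCm38 and used StringTie for transcript assembly and quantification. The deposited matrix holds estimated counts, in whole numbers and without normalization. Totals were 204539059 to 232148824 per sample. Rows of 1 assembled locus were summed, because StringTie can divide the reads of a gene between rows. Loci and rows were tested with edgeR 4.0.16 (filterByExpr, TMM, quasi-likelihood, genotype only, Benjamini-Hochberg adjustment over all features tested). The biological coefficient of variation was 0.302 for loci and 0.451 for rows. Test code was tested on simulated data. Members and lists were chosen with earlier results of these data known. Named genes were all members, the highest-level gene of each pathway list, the 2 highest markers per list (of the epithelial, lymphocyte, fibroblast and endothelial lists, with 1 marker not reported here), and the marker most correlated with each member. Some markers whose locus held another gene were named as well. Lengths came from GENCODE M21 and promoters from RefSeq GRCm38.p6. Alternatives were DESeq2 1.42.0, the edgeR exact test, other scalings, no filter, a replicate block, single samples left out and, added after seeing the data, an epithelial score as a term and the marker scores without *Cd79a* or *Cd68*.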

Additional observations from a re-analysis of the deposited data

How the results depend on the processing

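None of the 10 members passed the adjusted threshold under any alternative run. Over all loci, 0 passed in the quasi-likelihood test, 6 in edgeR's exact test and 8 in DESeq2's Wald test; over rows, the counts were 0, 32 and 93. Leaving out 1 sample gave 0 to 1 loci and 0 to 2 rows. At an unadjusted p of 0.05, 274 loci became 579 without a filter on low counts, 573 with the epithelial score and 204 to 542 with 1 sample left out, where *fat-1* sample 1 (482) and WT sample 3 (542) moved the count most. The 678 rows became 1136 without a filter and 1038 with the epithelial score.

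Log2 fold changes close to 0 changed sign without passing a test. *Notch3* was -0.0020 with scaling to the total count, -0.00040 without a filter and -0.0540 with the replicate block. *Jag1* was -0.0051 with the replicate block, and *Dll4* was -0.0053 with the block and -0.0108 with the epithelial score. *Dll1* was 0.0033 with DESeq2's size factors and in DESeq2's Wald test, and *Hes1* was 0.0024 with the epithelial score. With 1 sample left out the ranges were -0.56 to 0.47 for *Notch3*, -0.45 to 0.35 for *Hes1*, -0.38 to 0.31 for *Jag1*, -0.21 to 0.32 for *Jag2*, -0.26 to 0.056 for *Notch4*, -0.11 to 0.15 for *Dll4*, -0.058 to 0.11 for *Dll1*, -0.031 to 0.20 for *Notch1* and -0.033 to 0.20 for its row. The cause was not tested. Pearson's r with the epithelial score ranged from -0.809 to 0.603 for *Notch2*, from -0.060 to 0.390 for *Notch4*, from -0.694 to 0.254 for *Dll1* and from -0.628 to 0.193 for *Dll4*. Leaving out *fat-1* sample 1 turned *Notch2*, *Dll1* and *Dll4*, and leaving out *fat-1* sample 2 turned *Notch4* and *Dll4*.

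Samples with the same replicate number were not always the most alike. The deviations of same-numbered samples correlated at 0.799, -0.164 and 0.132, and those of *fat-1* sample 2 and WT sample 3 at 0.789. The samples also differed in epithelial marker RNA, so these values cannot tell whether samples were paired in their handling. With the replicate block, 376 loci and 784 rows had an unadjusted p at or under 0.05 and 0 of either passed the adjusted threshold. Intervals cover the spread of 3 pools per genotype.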
